A study of Mus musculus with 9 samples.

Results

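The BCL2 family genes examined here decide at the mitochondrion whether a T cell survives or dies. They were given as a list of 10 symbols, and 9 of the 10 had a probe set annotated with that symbol alone, out of 22180 named genes on the array. Bax carried no such annotation and was not analysed here. The 9 genes fall into 3 roles. Bcl2, Bcl2l1 and Mcl1 encode proteins that hold back death, Bcl2l11, Bid, Bmf, Bbc3 and Pmaip1 encode BH3-only proteins that trigger it, and Bak1 encodes a protein that opens pores in the outer mitochondrial membrane. In the RefSeq table (GRCm38.p6) Bcl2l1, Bcl2l11 and Bmf lie on chromosome 2, Bcl2 on chromosome 1, Mcl1 on 3, Bid on 6, Bbc3 on 7 and Bak1 on 17.

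As background, the survival proteins bind the BH3-only proteins and the pore formers and keep them inactive. When BH3-only proteins outnumber the free survival proteins, BAX and BAK assemble into pores, cytochrome c leaves the mitochondrion, and caspases are activated. Activated T cells depend on this balance. BIM, the product of Bcl2l11, is known for ending T cell responses, and cytokines such as IL-7 are known for sustaining BCL2. In mouse thymocytes RORγt is known for maintaining Bcl2l1, which encodes BCL-XL.

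RNA came from mouse naive CD4 T cells of 3 genotypes, labelled SRG3 cKO (SRG3-deficient), RORgt KO (RORgt-deficient) and WT, with 3 arrays each and 9 in all. Smarcc1 encodes SRG3, a scaffold protein of the nucleosome-moving Swi/Snf complex, while RORγt acts as the master regulator of Th17 cells. All 9 cultures were stimulated for 60 h through CD3 and CD28 (10 µg/ml of each antibody) with TGF-β1 at 1 ng/ml, IL-6 at 30 µg/ml as the labels state it, and antibodies against IL-4 and IFN-γ at 2 µg/ml each, which favours Th17 cells. The driver of the conditional deletion and the age of the mice are not given in the sources used here. The labels call the arrays biological replicates without saying whether they came from separate mice, and the p-values therefore cover array-to-array spread only, which may be technical.

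Levels are log2 intensities, with array medians between 7.12 and 7.14. Smarcc1 had 8.47, 8.79 and 8.62 in SRG3 cKO arrays, against 10.13, 10.32 and 10.39 in WT arrays (3.15-fold lower, limma adjusted p = 0.000207). RORgt KO arrays had 10.12, 10.04 and 10.19. The RORgt KO label was not checked in this way. T cell markers were bright in all arrays (7 measured, with gene means between 9.60 and 11.66). The summed linear intensity of 6 Th17 markers was 5312.1 to 5821.0 in SRG3 cKO, 2526.2 to 2929.4 in RORgt KO and 7953.7 to 11082.8 in WT arrays. At a limma adjusted p under 0.05, Il17a, Il17f, Il23r, Ccr6 and Il1r1 were lower in RORgt KO than in WT cells. Rora was higher there (log2 difference 0.36, limma adjusted p = 0.04999). In SRG3 cKO against WT Il17a, Il17f and Il23r were lower past that threshold. Ccr6 (0.02), Il1r1 (-0.03) and Rora (0.22) were not. On the first principal component, which held 28.8% of the variance, 3 arrays stood apart from their groups. WT array 1 scored -1.38 while WT arrays 2 and 3 scored -10.48 and -11.80, SRG3 cKO array 1 at 3.98, against -3.27 and -2.06, and RORgt KO array 3 at 3.22, against 9.82 and 11.98.

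Differences were tested with limma over all named genes, in 1 fit of the 9 arrays without a replicate block. A gene is said to rise or fall only where its Benjamini-Hochberg adjusted p was under 0.05. Intervals are 95% confidence intervals of the fit, and n is 3 arrays per group throughout. In RORgt KO cells Bcl2l11 rose and Bcl2l1 fell relative to WT cells, 2 of the 9 where 1.04% of all genes passed. None of the 9 passed in SRG3 cKO against WT (0.523% of all genes), and none passed there with the replicate number as a block. The same 2 genes, Bcl2l1 and Bcl2l11, passed in SRG3 cKO against RORgt KO (1.28% of all genes), a comparison that shares its RORgt KO arrays with the first. The genes were chosen with earlier results of these data known, so these counts cannot test for an excess over all genes.

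**Figure D1:**
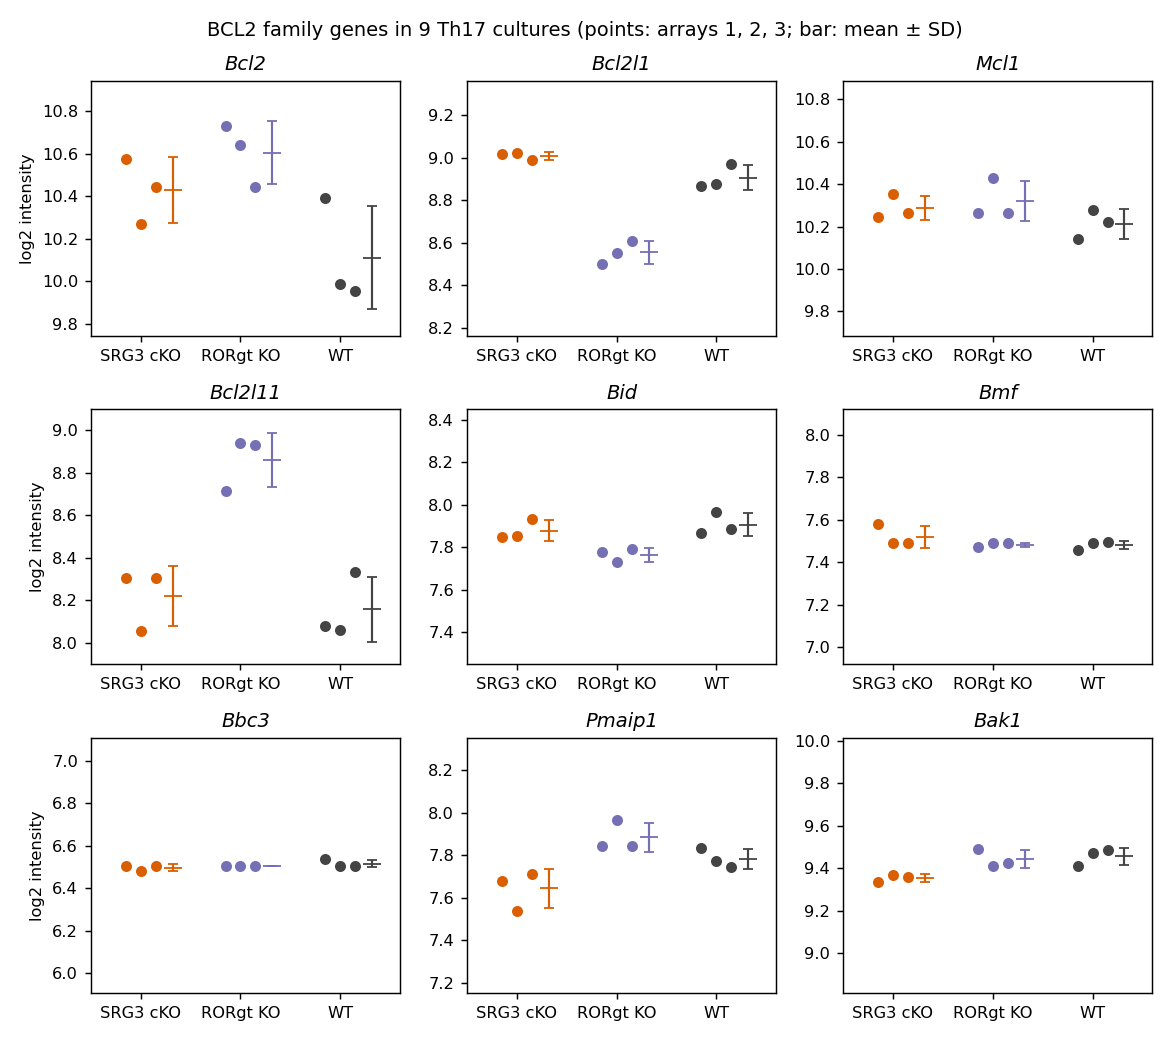
Levels of the 9 measured genes in every array, as log2 intensity, with 1 panel per gene spanning the same height on the log2 axis. Points are arrays 1, 2 and 3 of SRG3 cKO, RORgt KO and WT, and the bar beside them is the mean ± SD. RORgt KO arrays lie below all others for Bcl2l1 (8.50 to 8.61) and above all others for Bcl2l11 (8.71 to 8.94), while Bbc3 and Bmf are nearly level.

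Bcl2l1, the gene for the survival protein BCL-XL, had a level of 8.50, 8.55 and 8.61 in RORgt KO arrays, against 8.87, 8.88 and 8.97 in WT arrays. The groups did not overlap, and the fall was 1.28-fold (log2 difference -0.35, SE 0.04, 95% interval -0.45 to -0.25, limma adjusted p = 0.01). In SRG3 cKO arrays its level was 9.02, 9.02 and 8.99, above every WT array and above every RORgt KO array. Relative to WT this was a log2 difference of 0.10 (0.0047 to 0.20, limma adjusted p = 0.43), which did not pass. Relative to RORgt KO cells Bcl2l1 was 1.37-fold higher in SRG3 cKO cells (0.46, SE 0.04, 0.36 to 0.55, limma adjusted p = 0.00113). Bcl2l1 had the largest F statistic of the 9 genes over the 3 genotypes (limma F test, adjusted p = 0.00223).

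The fall in RORgt KO cells passed whichever single array was left out, with differences from -0.38 to -0.32 and adjusted p-values from 0.0148 to 0.04998. It did not pass in a fit of the 6 RORgt KO and WT arrays alone (adjusted p = 0.0619). Without the 3 arrays that stood apart it was -0.40 (adjusted p = 0.0364), and the difference of SRG3 cKO from RORgt KO cells was 0.48 (adjusted p = 0.05005), at the edge of the threshold.

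Bcl2l11, the gene for BIM, had a level of 8.71, 8.94 and 8.93 in RORgt KO arrays, against 8.08, 8.06 and 8.33 in WT arrays. Every RORgt KO array lay above every WT array, and the rise was 1.63-fold (log2 difference 0.70, SE 0.10, 0.49 to 0.92, limma adjusted p = 0.014). In SRG3 cKO arrays the level was 8.30, 8.06 and 8.30, within the range of WT arrays except for array 2, which lay just under the lowest WT array. Its difference from WT was 0.06 (-0.15 to 0.28, limma adjusted p = 0.854). SRG3 cKO cells had 1.56-fold less Bcl2l11 signal than RORgt KO cells (-0.64, SE 0.10, -0.86 to -0.42, limma adjusted p = 0.0133).

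These calls depended on single arrays and on the arrays fitted. In the 6 RORgt KO and WT arrays alone the rise did not pass (adjusted p = 0.0619). Only the estimate of the spread can change in that fit, and the size of the difference cannot. The rise in RORgt KO against WT was 0.66 (adjusted p = 0.0764) without RORgt KO array 2 and 0.65 (adjusted p = 0.0711) without WT array 2, and 0.63 (adjusted p = 0.085) without the 3 arrays that stood apart. The difference of SRG3 cKO from RORgt KO cells was -0.60 (adjusted p = 0.0699) without RORgt KO array 2, -0.61 (adjusted p = 0.0553) without RORgt KO array 3, and -0.65 (adjusted p = 0.146) without the 3.

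RNA was taken from whole cultures, so fewer cells of a type and less RNA per cell cannot be told apart. The summed linear intensity of 7 CD8 T and NK cell markers was 989.5 to 1037.9 in RORgt KO arrays, against 936.5 to 979.1 in WT arrays. Klrd1, an NK receptor gene, was the marker of the 7 that rose (6.87 ± 0.32 in RORgt KO and 5.96 ± 0.10 in WT cells, SD, n = 3 each, limma adjusted p = 0.0202), and 1 of the 7, Klrk1, averaged below the 25th percentile of all values (6.12). Of the 7, 5 were above 0 in RORgt KO against WT, with a median of 0.04. Cd8a lay below every WT array in all RORgt KO arrays (-0.08, limma adjusted p = 0.617). The 6 B cell markers summed to 1526.4 to 1812.2 in RORgt KO and 1205.2 to 1546.3 in WT arrays, and none passed. Of these 6, 4 were above 0, with H2-Ab1 the largest at 0.43. Cd79a and Cd79b were at -0.0067 and -0.0043. The 9 myeloid markers summed to 980.5 to 1001.2 in RORgt KO and 952.1 to 995.7 in WT arrays, with none past the threshold and Cd14 and S100a8 averaging below that percentile. The part of other cell types, and of the lower summed Th17 marker signal, in the Bcl2l1 and Bcl2l11 differences was not tested.

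Promoter windows of these 2 genes are shown because they moved in opposite directions in RORgt KO cells. The windows are those of RefSeq on GRCm38.p6, 250 bases before to 50 after an annotated start, for 9 of the 10 listed genes and 16 starts in all. These 9 include Bax, and Pmaip1 had no window. They were searched on both strands for AGGTCA, the core letters bound by ROR proteins, and GTAAACA, the core letters bound by FoxO proteins, which are known to activate Bcl2l11. The motifs were chosen after the values were seen, do not overlap each other, and are in capitals below. For each of the 2 genes the window printed is the only 1 that held a motif. The Bcl2l1 window is chr2:152828440-152828739 on the minus strand, around the third of 3 annotated starts, and the Bcl2l11 window is chr2:128125788-128126087 on the plus strand, around the first of 2.
Bcl2l1: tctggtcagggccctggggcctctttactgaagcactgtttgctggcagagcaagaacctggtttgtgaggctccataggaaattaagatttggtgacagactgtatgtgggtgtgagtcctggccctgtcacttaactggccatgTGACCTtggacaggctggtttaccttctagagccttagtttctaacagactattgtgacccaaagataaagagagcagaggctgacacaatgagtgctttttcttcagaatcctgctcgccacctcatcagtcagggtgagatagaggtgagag
Bcl2l11: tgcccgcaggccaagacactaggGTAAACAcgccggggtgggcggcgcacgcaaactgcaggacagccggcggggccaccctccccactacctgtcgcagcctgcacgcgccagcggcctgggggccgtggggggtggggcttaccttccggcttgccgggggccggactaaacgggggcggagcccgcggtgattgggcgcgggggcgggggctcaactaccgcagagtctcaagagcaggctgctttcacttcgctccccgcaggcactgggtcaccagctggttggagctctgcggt
The Bcl2l1 window held AGGTCA on the opposite strand (read here as TGACCT), its first base 104 bases before the start, and the other 2 Bcl2l1 windows held neither motif. The Bcl2l11 window held GTAAACA 227 bases before the start, and its other window held neither. Of the 16 windows 2 held AGGTCA, the other being 1 of Bmf, and 2 held GTAAACA, the other being 1 of Bbc3. Among all 32851 RefSeq windows, 16.3% held AGGTCA and 3.65% held GTAAACA. Counted by gene, where several starts give more windows, 18.1% and 4.05% of genes held them. These matches describe the letters of the windows, and no binding was measured here.

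**Figure D2:**
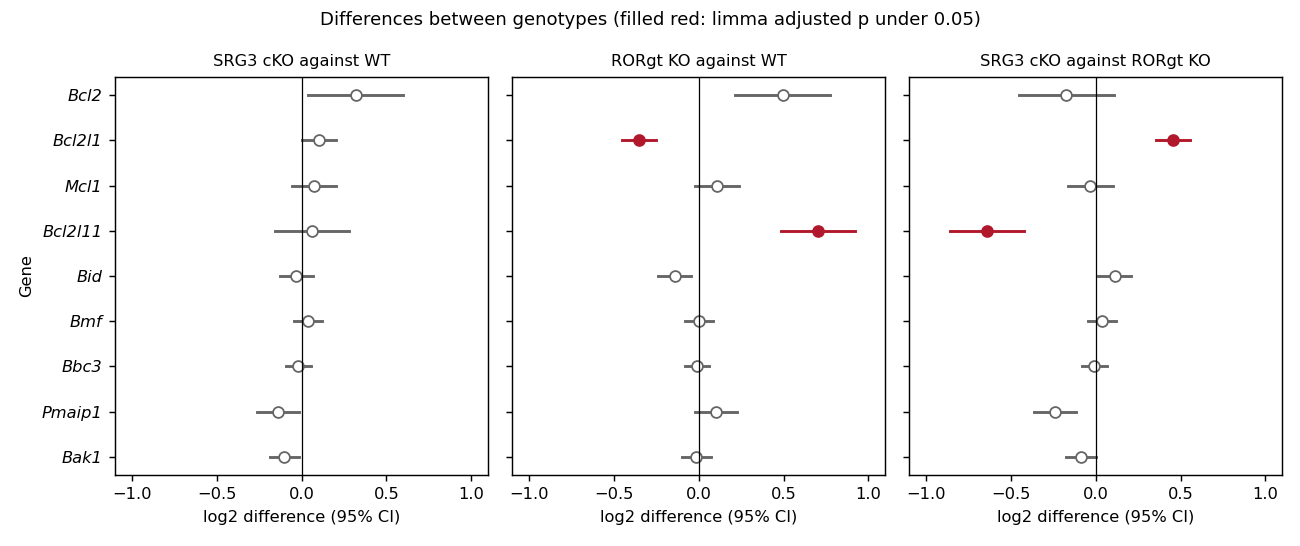
Log2 differences of the 9 genes in the 3 comparisons, with 95% confidence intervals from the limma fit. Filled red points passed an adjusted p of 0.05. Only Bcl2l1 and Bcl2l11 are filled, in RORgt KO against WT and in SRG3 cKO against RORgt KO, with opposite signs.

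Bcl2, which encodes the founding survival protein of the family, had a level of 10.73, 10.64 and 10.44 in RORgt KO arrays, against 10.39, 9.99 and 9.95 in WT arrays. The groups did not overlap, though RORgt KO array 3 and WT array 1 lay 0.05 apart, and the difference of 0.49 (0.21 to 0.77) did not pass over all genes (limma adjusted p = 0.127). In SRG3 cKO arrays the level was 10.58, 10.27 and 10.44, overlapping WT, with a difference of 0.32 (0.04 to 0.60, adjusted p = 0.391). That interval ignores the pairing of SRG3 cKO and WT arrays. With the replicate number as a block in the 6 SRG3 cKO and WT arrays, the SE for Bcl2 was 0.07 in place of 0.12, and its limma adjusted p was 0.157. SRG3 cKO and RORgt KO cells overlapped as well, at -0.17 (-0.45 to 0.10, adjusted p = 0.666).

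The order of the arrays within a genotype was as follows. WT array 1 had the highest Bcl2 level of the WT arrays, SRG3 cKO array 1 the highest of its group, and RORgt KO array 3 the lowest of its group, and the 3 SRG3 cKO arrays were spread evenly. Without WT array 1 the RORgt KO difference was 0.63 (limma adjusted p = 0.0318), and without the 3 arrays it was 0.72 (adjusted p = 0.0284). Without WT array 2 or 3 it was 0.43 or 0.42 (adjusted p = 0.372 and 0.352).

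**Figure D3:**
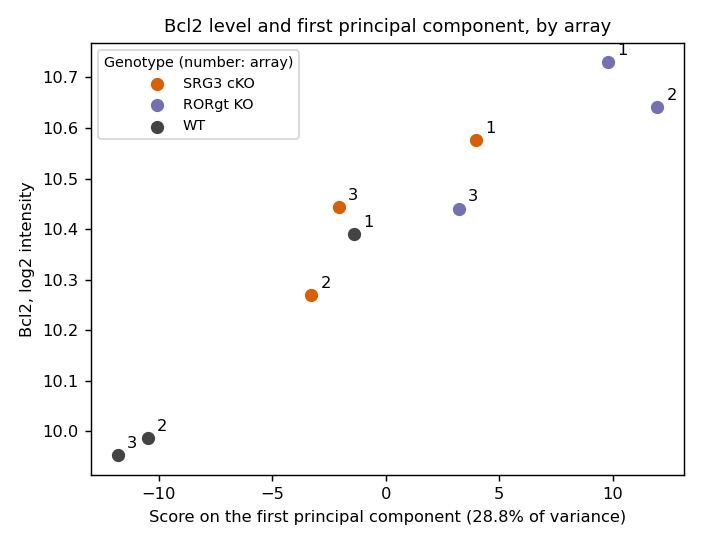
Bcl2 level (log2 intensity) against the score of each array on the first principal component of all named genes (28.8% of the variance, Bcl2 being 1 of the 22180 genes). Colours are SRG3 cKO, RORgt KO and WT, and numbers are the arrays. WT arrays 2 and 3 lie at the lower left (9.99 and 9.95), RORgt KO arrays 1 and 2 at the upper right (10.73 and 10.64), and the other arrays between them.

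A second Bcl2 probe set, dimmer than the one used, had 7.46, 7.49 and 7.55 in RORgt KO, 7.49, 7.63 and 7.52 in SRG3 cKO and 7.48, 7.38 and 7.29 in WT arrays. It gave a log2 difference of 0.11 (adjusted p = 0.469) for RORgt KO and 0.16 (adjusted p = 0.338) for SRG3 cKO against WT, in limma over 23521 probe sets. Between SRG3 cKO and RORgt KO cells it gave 0.05 (adjusted p = 0.824), the opposite sign to the brighter probe set. With all 9 arrays and no replicate block, neither probe set of Bcl2 passed in any of the 3 comparisons. The call for the brighter probe set in RORgt KO against WT depended on the block. With the replicate number as a block it passed in all 9 arrays (limma adjusted p = 0.0245) but not in the 6 arrays compared (adjusted p = 0.09). Arrays of these 2 groups are not taken as paired.

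Mcl1, the gene of a short-lived survival protein, passed in no comparison. Its level was 10.24, 10.35 and 10.26 in SRG3 cKO, 10.26, 10.43 and 10.26 in RORgt KO, and 10.14, 10.28 and 10.22 in WT arrays, and all 3 groups overlapped. Its differences were 0.07 (-0.06 to 0.21) for SRG3 cKO and 0.11 (-0.02 to 0.24) for RORgt KO against WT, with limma adjusted p = 0.685 and 0.501. Its other probe set was at 0.01 and -0.0047.

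Pmaip1, the gene for the BH3-only protein NOXA, which neutralises MCL1, passed in no comparison, and its differences from WT had opposite signs in the knockouts. Its level was 7.68, 7.54 and 7.71 in SRG3 cKO, 7.84, 7.96 and 7.84 in RORgt KO, and 7.83, 7.77 and 7.74 in WT arrays. SRG3 cKO arrays lay below all others and RORgt KO arrays above all others. The differences from WT were -0.14 (-0.26 to -0.01, limma adjusted p = 0.404) in SRG3 cKO and 0.10 (-0.02 to 0.23, adjusted p = 0.502) in RORgt KO cells. The difference of SRG3 cKO from RORgt KO cells was -0.24 (-0.37 to -0.11, adjusted p = 0.0937), and it passed only among genes brighter than the array median (adjusted p = 0.0496).

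Bid, whose product links death receptors to mitochondria once cleaved, had 7.78, 7.73 and 7.79 in RORgt KO, against 7.87, 7.97 and 7.88 in WT arrays. Every RORgt KO array lay below every WT array, and the difference of -0.14 (-0.24 to -0.05) did not pass (limma adjusted p = 0.211). SRG3 cKO arrays had 7.85, 7.85 and 7.93, overlapping WT at -0.03 (-0.13 to 0.07, adjusted p = 0.841). Against RORgt KO cells the SRG3 cKO difference was 0.11 (0.02 to 0.21, adjusted p = 0.367).

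Bak1, the pore-forming gene, had 9.34, 9.37 and 9.36 in SRG3 cKO arrays, against 9.41, 9.47 and 9.48 in WT arrays. The groups did not overlap, and the difference was -0.10 (-0.19 to -0.01, limma adjusted p = 0.383). RORgt KO arrays had 9.49, 9.41 and 9.42, overlapping WT, with a difference of -0.01 (-0.10 to 0.07, adjusted p = 0.921).

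Bmf and Bbc3 gave almost no spread. Bmf, whose product responds to detachment and cytoskeletal stress, ranged over 0.12 across the 9 arrays, with 7.52 ± 0.05 in SRG3 cKO, 7.48 ± 0.01 in RORgt KO and 7.48 ± 0.02 in WT cells (SD, n = 3 each). Bbc3, the gene for PUMA, a p53 target that binds all survival proteins, had 6.51, 6.48 and 6.51 in SRG3 cKO, 6.51 in all RORgt KO, and 6.54, 6.51 and 6.51 in WT arrays. The deposited Bbc3 value was the same to 4 decimals (6.5054) in 7 of the 9 arrays, and that of Bmf (7.4878) in 4. Mcl1 had 10.2640 in 3 arrays and Bak1 9.4118 in 2, across genotypes. Such repeated values were common in the table, where 56.5% of genes had 1 value in at least 2 arrays and 15.7% in at least 4. The mean Bbc3 level was above 33.2% of all values and below the array median.

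Counted together, 0 of the 9 genes passed in SRG3 cKO against WT, where 0.523% of all genes passed (116, or 195 with the replicate number as a block). At an unadjusted p under 0.05 there were 4 (Bcl2 and Bcl2l1 higher, Pmaip1 and Bak1 lower), against 11.2% of all genes. In RORgt KO against WT 2 of 9 passed, where 1.04% of all genes passed. Of the 2, 1 was higher (0.694% of all genes) and 1 lower (0.343%), and 4 of 9 had an unadjusted p under 0.05 (12.7%). In SRG3 cKO against RORgt KO 2 of 9 passed, where 1.28% of all genes did. Of these 1 was higher (0.595%) and 1 lower (0.681%), and 4 of 9 had an unadjusted p under 0.05 (11.1%). The 3 genotypes differed in the F test for 2 of 9 genes, Bcl2l1 and Bcl2l11, and for 1.68% of all genes. Arrays of the compared groups did not overlap for 3 of 9 genes in SRG3 cKO against WT (13.6% of all genes), 5 of 9 in RORgt KO against WT (14.3%) and 5 of 9 in SRG3 cKO against RORgt KO (14.6%). Each pair of comparisons shares the arrays of 1 genotype, so their counts are not independent. All genes are also an unlike background, since 8 of the 9 were brighter than the array median. In a fit of the 12168 genes that bright, 348 passed in RORgt KO against WT. The counts therefore describe the 9 genes and do not test for an excess.

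No gene of the 9 changed by 2-fold or more. The median log2 difference of the 9 was 0.04 in SRG3 cKO and 0.0011 in RORgt KO against WT, beside -0.0061 and -0.0027 over all genes. The median size of the difference, without its sign, was 0.07 in SRG3 cKO and 0.11 in RORgt KO against WT, beside 0.05 over all genes in both. By role, 1 of 3 survival genes fell and none rose in RORgt KO against WT, 1 of 5 BH3-only genes rose and none fell, and Bak1 did not pass.

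Around the family, 100 genes of 6 lists on the same pathways were measured. The lists were chosen with earlier results of these data known, so their counts cannot test for an excess over all genes. In RORgt KO against WT 5 of the 100 rose and none fell, beside 0.694% and 0.343% of all genes. In SRG3 cKO against WT 1 rose and 1 fell, beside 0.280% and 0.243% of all genes. In SRG3 cKO against RORgt KO 2 were higher and 6 lower, beside 0.595% and 0.681% of all genes. The medians of the 100 were 0.01, -0.0003 and 0.02 in that order. These genes were read from the main fit only. How their calls depend on single arrays or on the replicate block was not examined.

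The machinery downstream of the mitochondrion (19 of 21 measured) held 2 risers in RORgt KO cells. Apaf1, which encodes the scaffold that cytochrome c activates, had 9.24, 9.19 and 9.17 in RORgt KO, against 8.87, 8.89 and 8.94 in WT arrays. The groups did not overlap (log2 difference 0.30, SE 0.04, limma adjusted p = 0.0194), and Apaf1 was also lower in SRG3 cKO than in RORgt KO cells (-0.27, adjusted p = 0.0208). Casp6, which encodes an effector caspase, had 9.14, 9.43 and 9.02 in RORgt KO, against 8.82, 8.38 and 8.38 in WT arrays (0.67, SE 0.13, adjusted p = 0.04999). WT array 1 lay between the other WT arrays and RORgt KO cells, as for Bcl2. None of the 19 passed in SRG3 cKO against WT.

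A further list held other BCL2 family genes and genes of proteins that bind the family (14 of 18 measured). Only Bnip2, the gene of a binding protein, fell in SRG3 cKO against WT, and none passed in RORgt KO against WT. Bnip2, whose product was found through its binding to BCL2 and a viral relative, had 9.50, 9.54 and 9.51 in SRG3 cKO, against 9.77, 9.83 and 9.81 in WT arrays. The arrays did not overlap (-0.28, SE 0.04, limma adjusted p = 0.0154). Bnip2 was also lower in SRG3 cKO than in RORgt KO cells (-0.29, adjusted p = 0.00505), where it had 9.77, 9.84 and 9.81.

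Receptors of survival cytokines (8 of 9 measured) gave 2 risers in RORgt KO against WT and none in SRG3 cKO against WT. Il7r, the IL-7 receptor gene, had 10.35, 10.42 and 10.16 in RORgt KO, against 9.54, 9.20 and 9.34 in WT arrays (0.95, SE 0.09, limma adjusted p = 0.00135). SRG3 cKO arrays had 9.28, 9.26 and 9.24 for Il7r, 2.07-fold under RORgt KO (-1.05, adjusted p = 0.000679). Il21r, the IL-21 receptor gene, was at 0.35 (adjusted p = 0.0202) in RORgt KO against WT and at -0.47 (adjusted p = 0.0027) in SRG3 cKO against RORgt KO.

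Genes whose products regulate the family (28 of 30 measured) did not pass against WT in either knockout. In SRG3 cKO against RORgt KO Myb, a transcription factor gene known for activating Bcl2, was higher (0.56, SE 0.06, limma adjusted p = 0.00152), with 9.24, 9.20 and 9.33 in SRG3 cKO and 8.71, 8.66 and 8.72 in RORgt KO arrays. Against WT (8.86, 9.06 and 9.03) Myb was at 0.27 (adjusted p = 0.0962) in SRG3 cKO and at -0.29 (adjusted p = 0.0537) in RORgt KO cells. The groups overlapped in neither comparison. Pim1, which encodes a kinase that phosphorylates BAD, was lower in SRG3 cKO than in RORgt KO cells (-0.34, SE 0.07, adjusted p = 0.0445).

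Among p53 targets outside the family (20 of 20 measured) Trp53inp1, whose product takes part in p53-dependent death and autophagy, rose in both knockouts. It had 9.72, 9.68 and 9.51 in SRG3 cKO, 9.56, 9.93 and 9.51 in RORgt KO, and 8.78, 9.05 and 8.83 in WT arrays. The rises were 1.68-fold (0.75, SE 0.11, limma adjusted p = 0.0288) and 1.72-fold (0.78, SE 0.11, adjusted p = 0.0185). No other gene of that list passed against WT. Inside the family, where Bax was not measured, the p53 targets Bbc3 and Pmaip1 were at -0.02 and -0.14 in SRG3 cKO and at -0.01 and 0.10 in RORgt KO against WT. Perp, a membrane protein gene induced by p53, was lower in SRG3 cKO than in RORgt KO cells (-0.61, SE 0.11, adjusted p = 0.0254). Tnfrsf10b, the gene for the TRAIL receptor, which is also on the death receptor list (12 of 13 measured), was higher in SRG3 cKO than in RORgt KO cells (0.30, SE 0.05, adjusted p = 0.0318), and no other death receptor gene passed in any comparison.

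**Figure D4:**
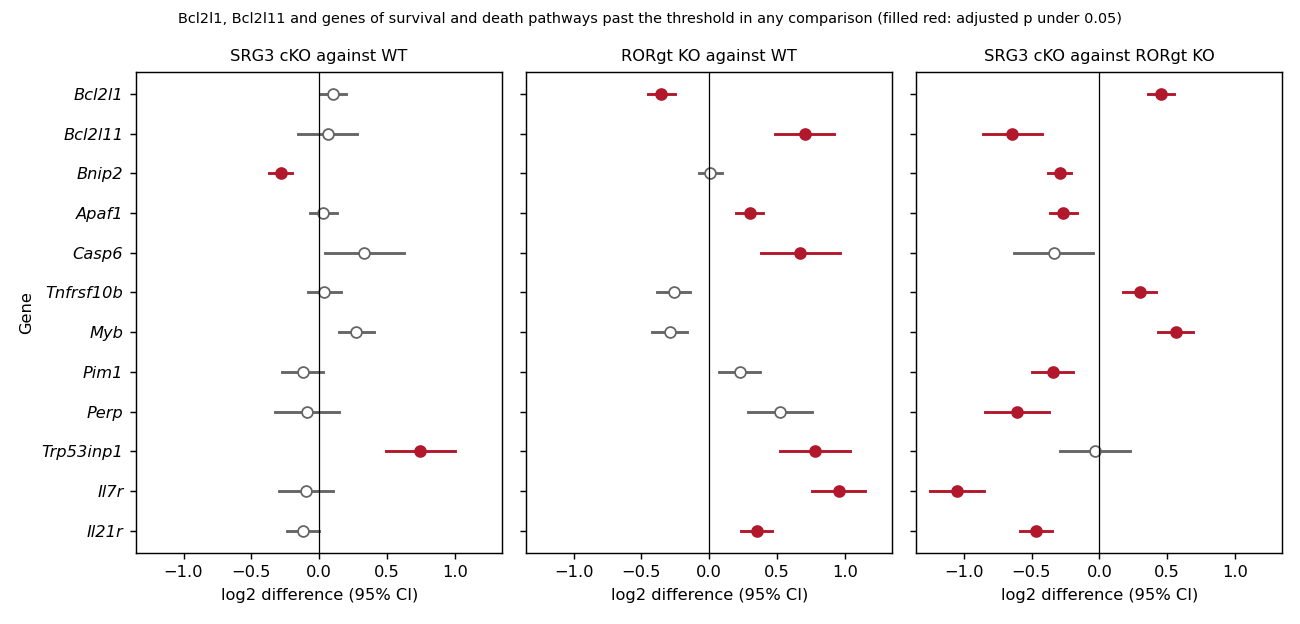
Log2 differences with 95% confidence intervals for Bcl2l1, Bcl2l11 and the 10 genes of the pathway lists that passed in at least 1 of the 3 comparisons. Filled red points passed a limma adjusted p of 0.05. Trp53inp1 is filled in both comparisons with WT (0.75 and 0.78), Il7r and Bcl2l11 are above 0 in RORgt KO against WT and below 0 in SRG3 cKO against RORgt KO.

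For the 2 genes chosen by a rule (the largest F and the largest range among the 9), the genes with the most similar levels over the 9 arrays were sought among 11089 others brighter than the median gene. Bcl2l1 was followed most closely by Tspan6 (Pearson r = 0.98 over 9 arrays), Ccdc15 (0.97), Tnk2 (0.96), Tnf (0.96) and Stx11 (0.96). Bcl2l11 was followed most closely by Stx7 (0.96), Neb (0.96), Dpp4 (0.96), Trav12-2 (0.95), a T cell receptor segment whose near-identical copies can share signal, and Tha1 (0.95). The 9 arrays share their genotypes, so these values describe likeness between gene patterns across 3 groups. As their choice by likeness favours, the 5 genes like Bcl2l1 all fell in RORgt KO against WT, by 0.24 (Tnk2) to 0.82 (Tnf) on the log2 scale. Of the 5 like Bcl2l11, 4 rose in RORgt KO against WT, the largest being Neb (0.93), and Tha1 did not pass (0.12, limma adjusted p = 0.221). None of the 10 passed in SRG3 cKO against WT.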

How the data were processed

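Each of the 9 RNA samples from Th17 cultures was read on 1 GeneChip array of 41345 probe sets. The deposited values are log2 intensities (2.97 to 13.97, quartiles 6.12 and 8.23), read as log2 from their range; background correction, summarization and normalization are not given in the sources used here. No sample column was unused (0), and no 2 arrays were identical (0 pairs). Of the probe sets 23521 had 1 gene symbol, 1814 several and 16010 none; the 1-symbol sets gave 22180 genes (23328 sets updated by gene ID with RefSeq GRCm38.p6), by the highest-mean probe set for 1082 genes. All 9 measured BCL2 family genes entered the fit.

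The genotypes were compared in limma 3.58.1 (R 4.3.3), 1 fit of all 9 arrays (6 residual degrees of freedom), with Benjamini-Hochberg adjustment over all genes and a threshold of 0.05. It was tested on simulated data. Those values were drawn independently for each array, without shared array effects or pairing, so that test does not cover these features of the data. The number of arrays limits the precision. The genes, lists, tests and alternatives were chosen with earlier results of these data known. Named were the 9 genes, pathway genes past the threshold in any comparison, and the 5 genes most like 2 of the 9. Arrays of the same number correlated in their deviations from the group means at 0.287, 0.186 and 0.116 for SRG3 cKO and WT, taken as paired; at 0.215, -0.00527 and 0.186 for RORgt KO and WT; and at 0.223, -0.00544 and 0.137 for SRG3 cKO and RORgt KO, the last 2 pairs of groups not being taken as paired. The main fit leaves out the pairing of SRG3 cKO and WT, so its intervals and p-values for that comparison ignore it. Alternatives covered normalization, centring, dim probe sets, probe set choice, variance model, array weights, arrays in the fit, replicate block and left-out arrays. Erythroid markers were not used here. An item that bears on the RORgt KO label is not reported here.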

Additional observations from a re-analysis of the deposited data

How the results depend on the processing

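Bcl2l1 and Bcl2l11 kept their direction in RORgt KO against WT and in SRG3 cKO against RORgt KO in every alternative run (Bcl2l1 -0.40 to -0.32 and 0.43 to 0.48, Bcl2l11 0.63 to 0.79 and -0.71 to -0.56). This was largely fixed in advance. The variance model, the replicate block, the removal of dim genes and the arrays of the third genotype cannot change a difference of group means. Leaving out arrays cannot turn the direction where the groups do not overlap. No member passed in SRG3 cKO against WT in any alternative. In the 6 arrays compared alone, 43 genes and 0 members passed in RORgt KO against WT, 13 genes in SRG3 cKO against WT and 142 in SRG3 cKO against RORgt KO. With the replicate block in those 6 arrays 63 genes and 1 member (Bcl2l11), 32 genes, and 131 genes and 1 member (Bcl2l1; Bcl2l11 at adjusted p = 0.0742) passed, in the same order. With the replicate block in all 9 arrays 374, 195 and 368 genes passed, Bcl2 passed in RORgt KO against WT (adjusted p = 0.0245, but 0.09 in the 6 arrays), the F test passed 3 members in place of 2, and no other member gained or lost a call in the 3 comparisons. In the comparisons with RORgt KO cells not every array correlated best with the array of its own number. At an adjusted p under 0.1 the counts were 400, 220 and 433 genes, and Pmaip1 was added in the third comparison. Among genes brighter than the median 348 passed in RORgt KO against WT, 196 in SRG3 cKO against WT. Without the 3 arrays that stand apart, chosen after seeing the data, 464 genes passed in RORgt KO against WT (2 members, Bcl2 and Bcl2l1), 1 in SRG3 cKO against WT, and 39 genes and 0 members in SRG3 cKO against RORgt KO, and 0 members in the F test. Leaving out each array in turn gave 45 to 322 genes and 1 to 3 members in RORgt KO against WT, 18 to 87 genes in SRG3 cKO against WT, 138 to 261 genes and 1 to 2 members in SRG3 cKO against RORgt KO, and 1 to 3 members in the F test. The number of genes moved by over 1.5 times without any array except RORgt KO 3 and WT 1 in RORgt KO against WT, without any except WT 1 in SRG3 cKO against WT, and without RORgt KO 1 or 2 or any SRG3 cKO array in SRG3 cKO against RORgt KO. Fewer arrays enter these fits; the cause of the other shifts was not tested. The dimness of Bbc3 limits what its probe set can show.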
